A study of Lolium perenne with 10 samples.

Results

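The 150 genes described here had more reads in the title-cold group of perennial ryegrass (Lolium perenne) seedlings than in controls and kept within a set distance of controls in every other treatment. They were chosen by measured values of these same libraries, from a table of read counts for 46394 assembled genes. A gene was kept when both libraries of the control, drought, title-cold or title-heat group held at least 10 counts, which left 21817 genes. The change of a group was its mean of log2(CPM + 1) minus the control mean, where CPM is the read count relative to library size, the usual sequencing unit, with library sizes corrected for composition by TMM factors. Of the genes kept, 2928 were higher by at least 1 on this scale in title-cold, and 1279 of those changed by less than 1 in each of the other treatments. The 150 with the largest title-cold change are the members. Their rise in title-cold and their small changes elsewhere were therefore fixed by the choice and are given as descriptions. Test calls on these contrasts are printed below as descriptions too, and do not support the choice.

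The series measured leaf RNA by RNA-seq in 10 libraries of wild-type seedlings, with 2 libraries in each of 5 groups and 30 seedlings pooled per library. Days were at 22 °C and nights at 18 °C for all plants. Control plants were not stressed. Drought plants went without water for 7 days from an age of 7 days, and submerged plants are described in the labels by that word alone. The temperature treatments lasted 12 h from an age of 14 days, at 4 °C in one group and 42 °C in the other. The group called title-cold here is cold by its sample titles, while the field for treatment says heat. The group called title-heat is the reverse, so neither is given a temperature. The age of control and submerged plants is not given in the sources used here, and a difference in age cannot be told apart from a treatment. The labels' protocols also speak of Arabidopsis and bermudagrass, and the deposited count table of ryegrass has a sheet named for bermudagrass and cold. Nothing says that the libraries of a group came from separately grown cultures. Any p-value therefore measures the spread between these libraries.

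As background, grasses answer cold and heat through different sets of genes. In cold, CBF/DREB1 transcription factors raise genes for dehydrins and other protective proteins, and ryegrass builds up fructans, sugar polymers that store carbon and protect membranes. It also makes ice recrystallization inhibition proteins, which bind to ice. In heat, heat shock factors switch on heat shock proteins, chaperones that keep other proteins folded. The title of the series names a heat shock factor of ryegrass as a positive regulator in heat. The deposited identifiers carry no gene names, and 0 of the 46394, hence 0 of the 150 members, were found among 56406 genes of the RefSeq annotation of the Kyuss_2.0 assembly. Lists of cold and heat response genes had no matched member and are void. The members are therefore described by identifier and by pattern. Leaf markers could not be looked up for the same reason.

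Total counts ran from 10847727 to 12605087 per library, and the genes kept held 94.9% to 95.3% of them under submergence and 99.5% to 99.8% elsewhere. TMM factors were 0.753 to 0.908 in control, drought and title-heat, and 1.25 to 1.40 in title-cold and submergence. Libraries of a group correlated at r = 0.96 to 0.982 across genes, which are not independent replicates. No libraries of a group agreed within counting noise (chi-square divided by its degrees of freedom, 7.71 or more), so none was merged with another as a repeat deposit.

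Most members had a low level in control leaves and a modest level in title-cold. Together the members took 1.13% and 1.47% of all counts in the title-cold libraries. In the other 8 libraries they took between 0.135% and 0.264%. These are shares of raw counts, without TMM factors. The most read member alone took 0.183% and 0.249% in the title-cold libraries. The median member went from 1.24 CPM in control to 11.5 CPM in title-cold, while its level was 1.24 CPM under drought, 1.72 CPM under submergence and 1.49 CPM in title-heat. All 150 had at least 30 counts in each title-cold library, and 70 had at least 10 counts in both controls. For 60 members the title-cold counts alone passed the filter of 10 counts, so these could enter only by being high there. In leaf RNA, more cells of a type and more RNA per cell cannot be told apart.

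The title-cold change of the members had a median of 2.25 on the log2(CPM + 1) scale and ran from 1.95 to 5.06, beside a median of 0.08 over the genes kept. Among the 108 members with at least 10 control counts in all, title-cold CPM was 3.46 to 52.9 times the control CPM, with a median of 7.04. The highest of these ratios is that of c149980.graph_c1, whose title-cold libraries lay far apart. The log2(CPM + 1) scale understates the change of genes with few reads. A gene at 0 in control had to reach 2.86 CPM to be the last member. The margin over the highest of the other 4 groups was 0.96 to 4.99, with a median of 1.85.

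**Figure D1:**
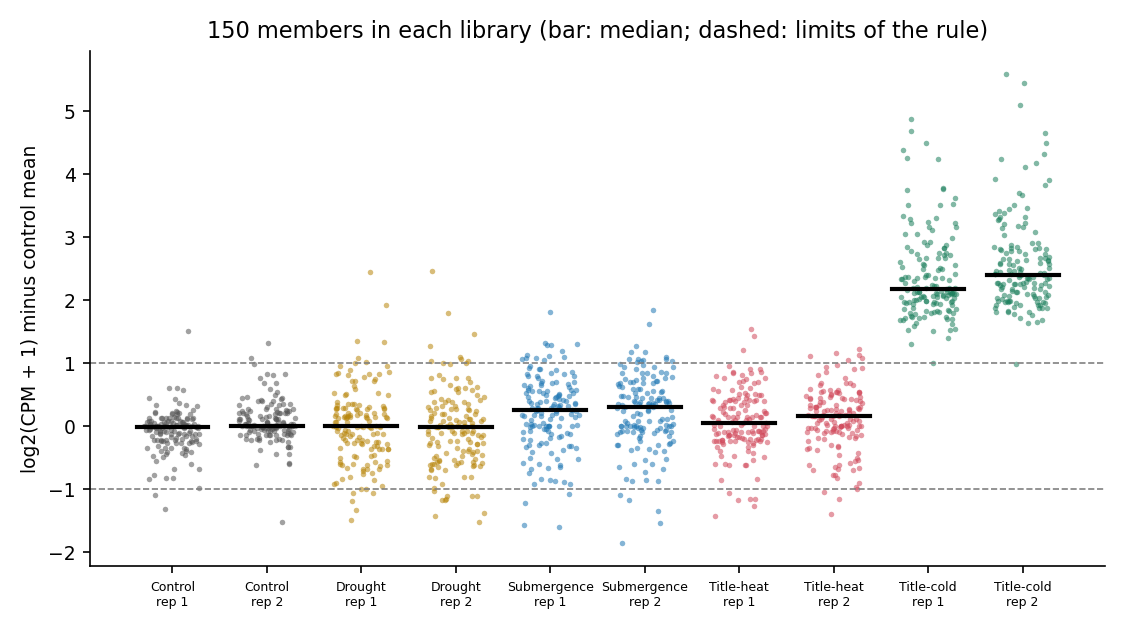
Each point is 1 of the 150 members in 1 library, as log2(CPM + 1) minus the mean of the 2 control libraries, with a bar at the median and dashed lines at the limits of 1 and −1. Medians are 2.17 and 2.41 in the title-cold libraries and between −0.01 and 0.31 in the others, and single points beyond the limits are libraries whose group mean stayed inside.

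The member with the largest change was c160655.graph_c0, with 0 counts in both controls. Its level was 0.73 and 0.10 CPM under drought, 0.41 and 0.45 in submerged plants, 0 and 0.12 in title-heat, and 24.6 and 42.5 CPM in title-cold. It was thus close to silent in 8 libraries, and its title-cold mean of 33.5 ± 12.7 CPM (SD, n = 2) was at least 106-fold higher than the level that 3 counts per control library allow.

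The next in order, c167981.graph_c0, was read in every library. It had 3.92 and 3.92 CPM in control, 3.54 and 2.72 under drought, 0.62 and 9.30 in submerged plants, 3.18 and 2.05 in title-heat, and 144 and 168 CPM in title-cold. Title-cold exceeded control 39.7-fold, and no other library came near it, although the submergence libraries lay far apart.

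A different shape was seen in c160835.graph_c0, the third, which had a steady level in untreated leaves. Its CPM was 18.7 and 13.9 in control, 18.0 and 18.2 under drought, 12.9 and 15.8 in submerged plants, 28.7 and 32.6 in title-heat, and 358 and 429 in title-cold. Title-cold stood 24.1-fold above control, and both title-heat libraries stood above all control, drought and submergence libraries.

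For c158231.graph_c0, the values were 4.15 and 4.02 CPM in control, 8.22 and 9.89 under drought, 2.20 and 5.73 in submerged plants, 3.40 and 4.47 in title-heat, and 94.6 and 113 in title-cold. Title-cold was 25.4-fold above control, and its drought change of 0.98 lay just inside the limit of 1.

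The fifth, c149980.graph_c1, owed its high rank mostly to 1 library. It had 13.9 CPM in title-cold replicate 1 and 89.9 CPM in replicate 2, against 1.57 and 0.39 in control, 0 and 9.48 under drought, 0 and 2.61 in submerged plants, and 1.31 and 1.57 in title-heat. The lower title-cold library alone would give a change of 2.98 in place of 4.28, still above the last member's 1.95. The drought libraries also lay far apart.

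The sixth, c145095.graph_c0, had the opposite form, with 406 and 404 CPM in title-cold and scattered values elsewhere. It read 31.5 and 13 CPM in control, 11.8 and 57.8 under drought, 32.9 and 38 in submerged plants, and 14.9 and 20.05 in title-heat. The title-cold libraries were nearly equal at 405 ± 1.25 CPM (SD, n = 2), while control and drought libraries overlapped.

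The remaining 4 of the 10 largest changes were at low levels outside title-cold. The eighth, c155639.graph_c0, had 35.3 and 38.6 CPM in title-cold and at most 3.14 CPM in the other 8 libraries. The seventh, c156921.graph_c0, had 13.9 and 20.9 CPM in title-cold, 0.99 and 0.48 in title-heat, and at most 0.20 CPM in the other 6. In these genes the title-cold libraries lay far above the rest.

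Of the last of the 10, c99626.graph_c0 had 8.36 and 16.4 CPM in title-cold and c132836.graph_c1 had 8 and 17.0 CPM, both with 0 counts in both controls. They stood at least 39.2-fold and 39.7-fold above what 3 counts per control library allow. In title-heat c132836.graph_c1 had 1.31 and 0.24 CPM.

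**Figure D2:**
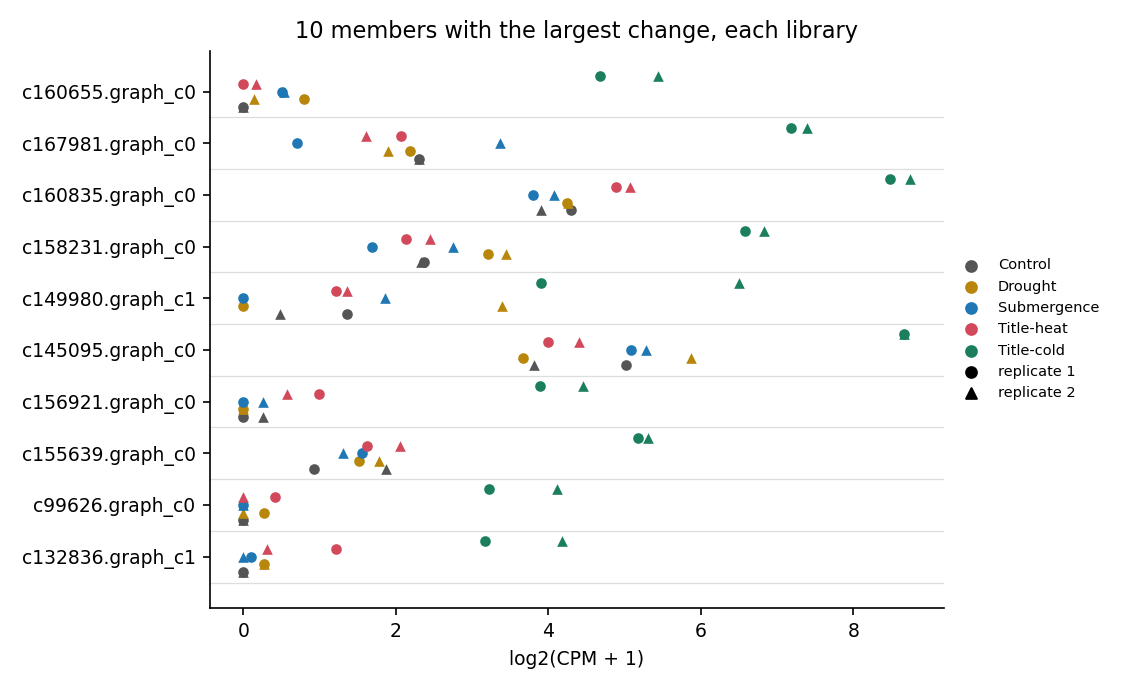
Level of the 10 members with the largest title-cold change, as log2(CPM + 1) in each library, with colours for the groups, circles for replicate 1 and triangles for replicate 2. In each of these genes both title-cold libraries lie to the right of the other 8, and c149980.graph_c1 has its title-cold libraries farthest apart, at 13.9 and 89.9 CPM.

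The 5 members with the most reads in title-cold had changes of 1.97 to 2.51. CPM is not divided by gene length here, so it does not rank transcript abundance between genes. The most read, c161883.graph_c0, had 328 and 345 CPM in control, 683 and 517 under drought, 254 and 233 in submerged plants, 388 and 363 in title-heat, and 1475 and 1920 in title-cold. Title-cold was 5.04-fold above control, and drought libraries lay between.

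Close behind it, c146651.graph_c0 had 347 and 328 CPM in control, 603 and 690 under drought, 186 and 185 in submerged plants, 654 and 490 in title-heat, and 1295 and 1848 in title-cold. Title-cold was 4.66-fold above control, and its groups fell in the order submergence, control, title-heat and drought, title-cold, with title-heat and drought overlapping.

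The third by reads, c146837.graph_c0, had 785 ± 127 CPM (SD, n = 2) in title-cold against 198 ± 6.05 in control, 235 ± 6.81 under drought, 271 ± 3.12 in title-heat and 363 ± 11.8 under submergence. Here submergence was the second highest group, and no libraries of different groups overlapped. The fourth, c144362.graph_c0, had 665 ± 216 CPM in title-cold and 131 ± 95.8 in control, where the libraries read 63.4 and 199. The fifth, c148427.graph_c0, had 450 ± 34.9 CPM in title-cold, 194 ± 0.13 under submergence, 108 ± 9.77 in control, 107 ± 2.23 in title-heat and 73.6 ± 4.63 under drought.

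By control level, 15 members had 0 counts in both controls, 49 had up to 1 CPM, 66 had 1 to 10 CPM, 15 had 10 to 100 CPM and 5 had over 100 CPM. The median title-cold change of these classes was 2.70, 2.21, 2.19, 2.32 and 2.19. All members were selected at 1.95 or more, so nothing is read from these medians. The members without control reads were faint in title-cold too, with a median of 5.52 CPM, and stood 9.96-fold to 106-fold or more above the control floor of 0.315 CPM. Another 11 members had 1 to 3 control counts, and no fold is given for them. No member had 0 counts in all 8 libraries outside title-cold.

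**Figure D3:**
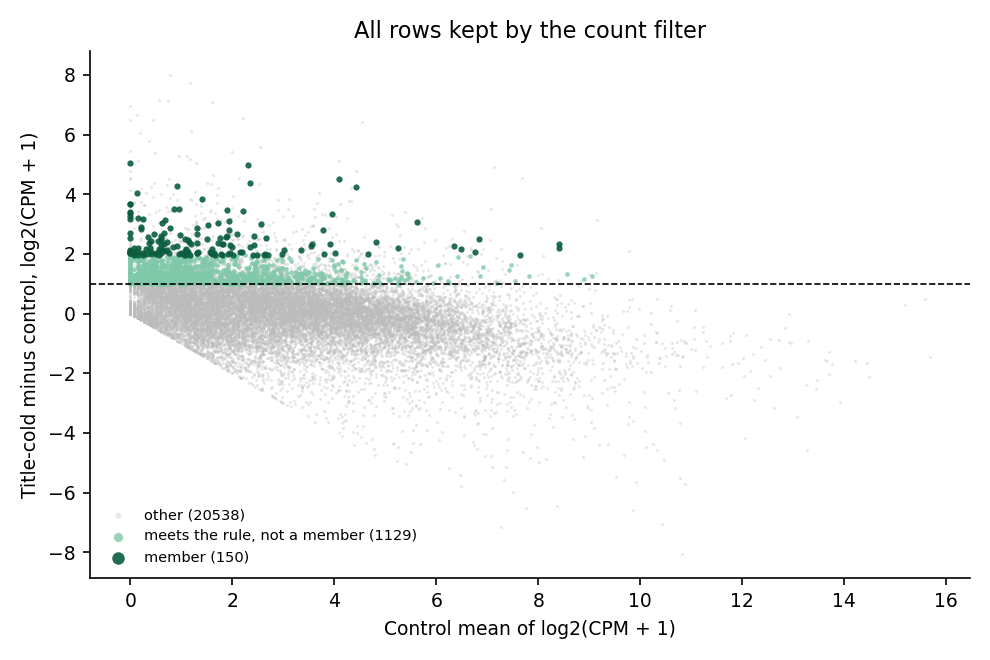
Title-cold minus control on the log2(CPM + 1) scale against the control mean of log2(CPM + 1), for the 21817 genes kept. Members (dark green) fill the range from 0 control reads to over 300 CPM, the other 1129 genes that met the rule (light green) lie between changes of 1 and 1.95, and grey genes above the line failed the limits in another treatment.

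At the edge of the list, the last 3 members were c149118.graph_c0, c163531.graph_c0 and c166857.graph_c0, each with a title-cold change of 1.95. The first 3 genes outside were c167607.graph_c0 at 1.95, c145067.graph_c2 at 1.95 and c154212.graph_c0 at 1.94. The edge is therefore no gap. In c149118.graph_c0 the title-cold libraries had 3.23 and 2.88 CPM from 44 and 43 counts, and the other 8 libraries had at most 1 count. In c154212.graph_c0, left outside, they had 447 and 333 CPM against 94.8 and 105 in control.

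How flat the members were elsewhere varied widely. The largest absolute change over drought, submergence and title-heat had a median of 0.67 and lay below 0.25 in 15 members, below 0.5 in 45 and at 0.9 or more in 29. Drought changes were split evenly, 75 above 0, 73 below and 2 at 0. Under submergence 100 were above 0, 45 below and 5 at 0, with a median of 0.25 beside 0.03 over the genes kept. All 1279 genes that met the rule had a submergence median of 0.26, so this lean is not particular to the members. In title-heat 89 were above 0, 59 below and 2 at 0, with a median of 0.09 beside 0. The lean under submergence rests in part on scaling, since upper-quartile factors gave a median of 0.15 and total counts one of 0.56, while the genes kept had medians of −0.07 and 0.43. Relative to the genes kept it was 0.22, 0.21 and 0.12 with TMM, upper-quartile factors and total counts.

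Submergence was the highest of the other 4 groups in 65 members, title-heat in 39, drought in 33 and control in 13. In 38 members drought, submergence and title-heat were all above control by up to 1, and in 13 all were below. The flattest were c165848.graph_c0, c149118.graph_c0 and c160034.graph_c0, which reached 3.27, 3.06 and 3.94 CPM in title-cold and hardly any reads elsewhere. At such levels the pseudocount of 1 CPM compresses any change, so their flatness is partly a matter of the scale.

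Because the limits were set on group means, single libraries could pass them. In 49 members at least 1 of the 6 libraries of the other treatments lay 1 or more above the control mean, in 26 at least 1 lay as far below, and in 87 all 6 stayed within 1. By edgeR's quasi-likelihood test (Benjamini-Hochberg adjusted p below 0.05 over all genes tested), which does not add 1 CPM, 41 members were called against control in at least 1 of the other treatments, while 65.9% of the 27571 genes tested were. Under drought 7 were called higher and 10 lower, beside 15.2% and 11.7% of the genes tested. Under submergence 17 were called higher and 6 lower, beside 32.2% and 17.1%. In title-heat 7 were called higher and 4 lower, beside 12.3% and 8.33%. The rule used these contrasts, which share their controls, so nothing is read from the difference from the background. No member was left out by the filter of this test. The genes tested outnumber the 21817 that the rule kept without looking at submergence, so this background is not matched to the members. Among the 10 largest title-cold changes, c160655.graph_c0 was called higher under submergence, and c160835.graph_c0 and c132836.graph_c1 higher in title-heat. Of the most read members, c146651.graph_c0 was called higher under drought and in title-heat and lower under submergence. Drought was called higher and submergence lower in c161883.graph_c0, and the reverse in c148427.graph_c0. In c146837.graph_c0 submergence was called higher.

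In title-cold against control, the same test called 137 members higher and 0 lower, and 11.1% of the genes tested higher. The rule used this contrast too, and the count adds nothing to it. The 13 members that were not called include c149980.graph_c1, c160034.graph_c0, c142141.graph_c2 and c166903.graph_c0, named here after their values were seen, in which libraries of 1 group differ widely or counts are few. The number called higher in title-cold and in no other treatment was 96, beside 2.85% of the genes tested. The rule chose genes for this pattern, so this count too adds nothing to it.

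Both title-cold libraries lay above all other 8 libraries in 149 members, beside 15.1% of the genes kept, and the rule favours this. The exception was c142141.graph_c2, with 4.33 and 12.3 CPM in title-cold and 4.46 CPM in submergence replicate 2. The absolute difference between the title-cold libraries had a median of 0.33 on the log2(CPM + 1) scale. Among the 74 members between 7.15 and 25.7 CPM it was 0.33, and among 6305 other genes of that range 0.23. Differences over 1 were found in 17 of 150 members, and in 5.24% of the genes kept. Such differences were found in 15 members each between the control, drought and submergence libraries, beside 5.18%, 7.76% and 4.36% of the genes kept. Between the title-heat libraries they were found in 7, beside 3.17%. No test of this spread is given.

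The widest gaps were in c133662.graph_c0, c165806.graph_c1 and c149980.graph_c1. The first had 21.6 CPM in title-cold replicate 1 and 2.55 CPM in replicate 2, with 0 counts in control and drought. The second had 65.2 and 9.66 CPM, where control had 5.94 and 3.13 and submergence 7.71 and 8.15. Taken alone, the lower title-cold library would leave c165806.graph_c1 and c166903.graph_c0 under a change of 1, and the other 148 members above it. In 90 members replicate 2 was the higher, beside 50.4% of the genes kept.

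**Figure D4:**
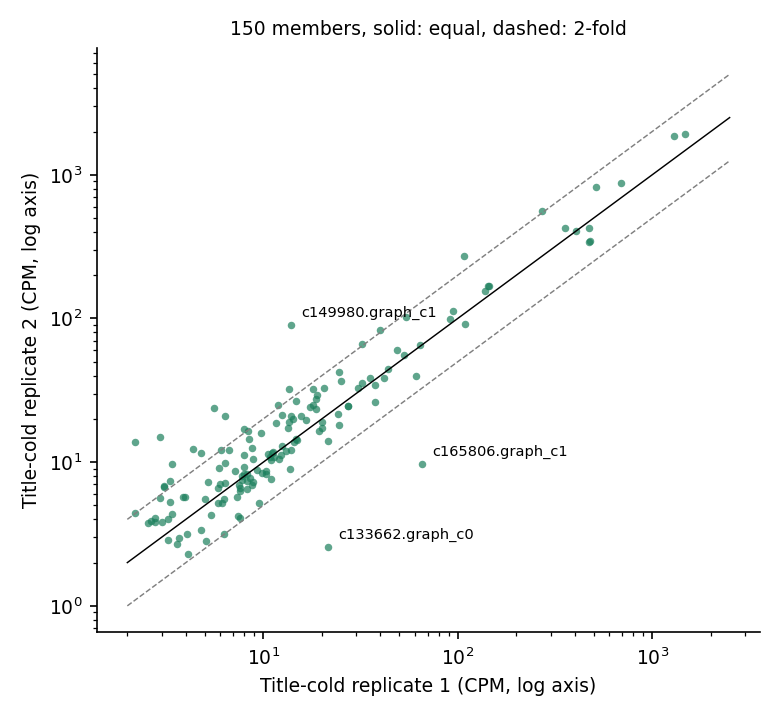
CPM of the 150 members in title-cold replicate 1 and replicate 2 on log axes, with a solid line at equal values and dashed lines at a ratio of 2. Most members lie between the dashed lines, and the 3 named genes are those with the largest difference on the log2(CPM + 1) scale, with c133662.graph_c0 at 21.6 and 2.55 CPM.

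To measure the pattern in libraries that did not choose it, the rule was applied to the replicate 1 libraries alone and the chosen 150 genes were read in the replicate 2 libraries. Of these, 102 were higher by at least 1 in title-cold replicate 2 over control replicate 2, beside 14.4% of the genes kept in that choice. Their median change was 2.46 where they were chosen and 1.68 where they were not, against 0.05 over all genes kept there. In the reverse direction 103 of 150 were higher by at least 1 in replicate 1, beside 14%, and the median went from 2.44 to 1.58. Most of the chosen genes were thus also higher in title-cold in the other libraries, at a smaller size. Those libraries belong to the same groups and are not known to come from separately grown plants. The genes are not replicates, and the genes kept were not matched to them in level.

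The second requirement, little change elsewhere, held less often. All 3 limits were met in the other replicate by 85 of the 150 genes chosen in replicate 1 and by 100 of those chosen in replicate 2, beside 43.2% and 44.8% of the genes kept. The whole rule was met by 59 and by 75, beside 5.85% and 5.37% of the genes kept. The pseudocount of 1 CPM compresses changes of faint genes, and genes of like level were not compared. In 22 and in 9 of the chosen genes the title-cold library not used had 0 counts, so these were read in 1 title-cold library only. The lists chosen in 1 replicate shared 65 and 68 genes with the 150 members. These are single libraries, so no test is given.

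**Figure D5:**
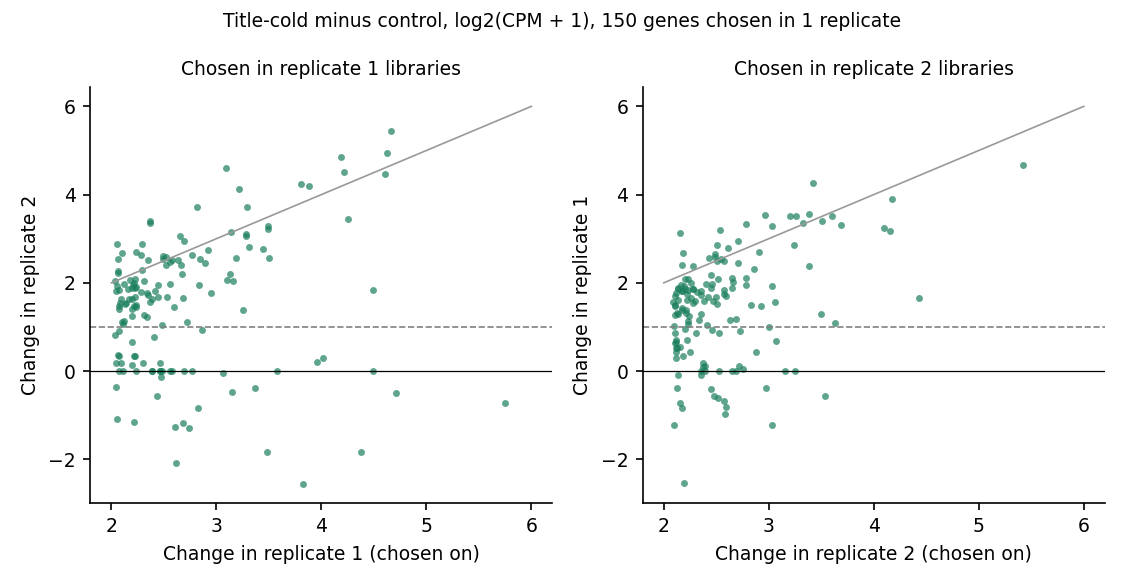
Title-cold minus control on the log2(CPM + 1) scale for 150 genes chosen in the replicate 1 libraries (left) or the replicate 2 libraries (right), with the change in the libraries used for the choice on the horizontal axis and in the other libraries on the vertical axis. The grey line marks equal values and the dashed line a change of 1, which 102 and 103 genes reach.

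The contrasts among drought, submergence and title-heat were not part of the rule, although its limits keep them below 2 on its scale. Members are tested there with edgeR over all 27571 genes. Between title-heat and drought, 12 members were higher in title-heat and 5 lower, which is 8% and 3.33% of the members beside 10.9% and 11.3% of the genes tested. Between submergence and drought, 31 were higher under submergence and 11 lower, 20.7% and 7.33% beside 33.7% and 21.7%. Between submergence and title-heat, 22 were higher under submergence and 15 lower, 14.7% and 10% beside 33.5% and 20.9%. All 6 shares lay below the background, in genes whose changes the rule had bounded. The background is also a larger set than the 21817 genes kept, whose filter did not look at submergence. It was not matched to the members, so nothing is read from the difference. Leaving out 1 library lowered the count between title-heat and drought from 17 to 11 without drought replicate 1, to 6 without title-heat replicate 1 and to 5 without title-heat replicate 2. The 42 calls between submergence and drought became 25 without drought replicate 2. The 37 between submergence and title-heat became 18 and 21 without title-heat replicate 1 or 2.

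Of the 5 most read members, 4 were called between submergence and drought, 2 in each direction. The other, c144362.graph_c0, was not called (edgeR adjusted p = 0.0580). Of all 27571 genes tested, 33.7% were called higher under submergence and 21.7% lower, so nothing is read from this count. In c146651.graph_c0 submergence, at 185 ± 0.48 CPM (SD, n = 2), was below drought at 647 ± 61.3 CPM (edgeR adjusted p = 0.000121). It was also below title-heat at 572 ± 116 CPM (edgeR adjusted p = 0.000198). In c161883.graph_c0 submergence, at 243 ± 14.8 CPM, was below drought at 600 ± 117 CPM (edgeR adjusted p = 0.000366).

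The opposite order was found in other members with many reads. In c148427.graph_c0 submergence, at 194 ± 0.13 CPM, was above drought at 73.6 ± 4.63 CPM (edgeR adjusted p = 6.7e-05) and above title-heat at 107 ± 2.23 CPM (edgeR adjusted p = 0.00115). In c146837.graph_c0 submergence, at 363 ± 11.8 CPM, was above drought at 235 ± 6.81 CPM (edgeR adjusted p = 0.00717). Genes that shared a title-cold level 3.96-fold to 5.04-fold above control thus parted under submergence. In these genes the libraries of the groups compared did not overlap.

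Some faint members were read in 1 of these treatments and not in another. In c148231.graph_c0, with 14.7 and 26.5 CPM in title-cold, both submergence libraries had 0 counts, below 1.98 and 0.81 CPM under drought (edgeR adjusted p = 0.00448) and 0.55 and 1.45 CPM in title-heat (edgeR adjusted p = 0.00691). In c160783.graph_c0, with 10.3 and 8.32 CPM in title-cold, reads outside title-cold came from drought alone, with 9 and 7 counts. It was lower than drought under submergence (edgeR adjusted p = 0.00293) and in title-heat (edgeR adjusted p = 0.0126), both at 0 counts.

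Reads of c166464.graph_c0, with 6.02 and 7.04 CPM in title-cold, numbered 18 and 26 under submergence and 0 in both title-heat libraries (edgeR adjusted p = 0.00261). In c148751.graph_c0, with 7.78 and 7.98 CPM in title-cold, title-heat had 1.86 and 1.93 CPM and drought 0 and 0.10 CPM (edgeR adjusted p = 0.00477). These calls rest on few reads, though in each the groups compared do not overlap.

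The rule for naming also took c156921.graph_c0 and c162713.graph_c0 between title-heat and drought, c150024.graph_c0 and c155430.graph_c0 between submergence and drought, and c138720.graph_c0 and c154472.graph_c2 between submergence and title-heat. In c162713.graph_c0 drought, at 11.7 ± 5.32 CPM, was above title-heat at 2.46 ± 1.47 CPM (edgeR adjusted p = 0.0139), and the other 5 compare levels under 1.5 CPM. Each of these 6 calls was lost when 1 library was left out. For c162713.graph_c0 this was drought replicate 1 or title-heat replicate 1, with an adjusted p of up to 0.104 in edgeR. The calls of c160783.graph_c0 between title-heat and drought (up to 0.0572 without a title-heat library) and of c148231.graph_c0 between submergence and title-heat (0.0501 without title-heat replicate 2) ended likewise. The other calls given above with a p held with each library left out in turn.

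Identifiers have a stem and a suffix, and the stem was not used by the rule. What a shared stem stands for is not stated in the sources used here, and splitting of reads between similar sequences was not tested. Stem c163350 held 2 members. Its suffix graph_c2 had 18.7 and 23.6 CPM in title-cold and graph_c1 had 10.9 and 10.9 CPM, and both read between 0.807 and 2.70 CPM in the other 8 libraries. Another 24 members shared a stem with 25 genes kept that are not members. Of those 25, 7 were higher by at least 1 in title-cold and 3 lower by at least 1, with a median change of 0.53. Among all 4329 genes kept that share a stem and are not members, 10.8% were higher by as much, and their median change was −0.03.

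Genes of a stem differed in title-cold in the same direction on some stems and in opposite directions on others. Besides its member graph_c2, stem c154472 had graph_c1, which went from 3.76 CPM in control to 39.1 CPM in title-cold, and graph_c0, which went from 0 to 2.56 CPM. The first missed the list because its submergence change was 1.04. On stem c149980 the member graph_c1 was higher, while graph_c0 had 23.7 CPM in control and 8.53 CPM in title-cold. On stem c165848 the member graph_c0 was among the flattest, and graph_c1 had 192 CPM in control and 90.9 CPM in title-cold. No test is given for partners, which are few and were listed after the members were known.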

How the data were processed

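The authors deposited whole-number read counts per assembled gene for 10 leaf libraries. Per the submitters' processing notes, the tools included RSEM and DESeq 1.10.1, whose roles are unstated. No source used here names the assembly or aligner. If RSEM made the counts, reads of similar sequences were split between genes. Members and lists were chosen with earlier results of these data known.

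CPM, TMM factors and the rule were computed from the deposited counts with edgeR 4.0.16 in R 4.3.3, with library sizes over the genes kept and a pseudocount of 1. For tests, filterByExpr (minimum count 10, minimum total 15) left 27571 genes. One quasi-likelihood fit with robust dispersion covered all 10 libraries, with 1 coefficient per group and 5 residual degrees of freedom, and calls were made at 0.05 after Benjamini-Hochberg adjustment. The common dispersion was 0.0899. The code was tested on simulated data. With 2 libraries a group, an exact permutation test of a single value cannot reach significance and none was run. Floors of 3 counts per library cover counting error only. Fitted fold changes of genes at 0 counts depend on the prior count and are not printed.

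Named genes were, by rule, the 10 largest changes, the 5 most read in title-cold, the top 3 with 0 control counts, 3 on each side of the edge, the 3 flattest, the 3 highest and 3 lowest in control (ties by rank), the 3 with the largest title-cold library difference, and in each contrast among the other treatments the 2 largest called changes in each direction. Alternatives covered scaling, filters, pseudocounts, limits, DESeq2 1.42.0, a replicate block and each library left out.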

Additional observations from a re-analysis of the deposited data

How the results depend on the processing

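Members were still raised in title-cold under all scalings, filters and pseudocounts run. They had been chosen for a change of 1.95 or more in these counts, so this outcome was largely fixed in advance. Their list was less firm. The rule was met by 2274 genes with total counts, 484 with a pseudocount of 5 and 443 with a limit of 0.5, against 1279, and by 1221 to 1722 with a library left out. Of the 150 members, 91 stayed in the top 150 with a pseudocount of 0.5, 67 with 5 and 45 with a limit of 0.5, and 99 to 139 with a library left out, the fewest without title-cold replicate 2. The median title-cold change was 2.72 with total counts, where the genes kept shifted by 0.48, 2.69 with a pseudocount of 0.5 and 1.38 with 5. With a library left out it was 2.14 to 2.39.

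Members called in title-cold numbered 131 to 150 under the other settings and 100 to 118 with a library left out. The rule used the title-cold contrast, so these counts add nothing to it. Calls against control elsewhere moved more. Under drought there were 42 with no filter and 6 in a fit of the 2 groups alone, against 17. Under submergence there were 53 with total counts, 38 with no filter, 13 in a fit of the 2 groups and 13 with DESeq2, against 23. In title-heat there were 28 with no filter and 7 in a fit of the 2 groups, against 11. Total counts gave 59 calls between submergence and title-heat (37), and no filter 37 between title-heat and drought (17). The cause was not tested. With a library left out, calls numbered 7 to 15 for drought, 11 to 16 for submergence and 1 to 5 for title-heat against control, 5 to 12 between title-heat and drought, 25 to 33 between submergence and drought, and 18 to 27 between submergence and title-heat. Title-heat against control had 1 without control replicate 2, the fewest. With total counts, which shift the median of the genes kept by 0.49 under submergence and −0.14 in title-heat, c161883.graph_c0 was no longer called lower under submergence than in title-heat, and its log2 difference was 0.12 (edgeR adjusted p = 0.614).

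No pairing by replicate number was seen, as deviations of same-numbered libraries correlated at −0.02 to 0.05 between groups. Counting noise lowers such correlations, so this measure could miss a weak pairing. With the replicate block, 131 members were called in title-cold, 15 under submergence and 7 in title-heat against control.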
